A study of Rattus norvegicus with 35 samples.

Results

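Solute carriers are membrane proteins that move amino acids, sugars, ions, metals, vitamins, nucleotide sugars and other small molecules across the plasma membrane and the membranes of organelles. Most work without ATP, by coupling the transport of a substrate to a gradient of sodium or protons or by exchanging it for another molecule, and the sodium gradient itself is kept by the sodium pump. The endoderm derived from the hypoblast lines the yolk sac, which in rodents takes up nutrients for the embryo before the placenta does.

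The members described here are transcript records with a symbol of the solute carrier (Slc) family that were found in several single rat cells. A record was a member when it reached 5 CPM (the read count scaled to a fixed library total) in at least 5 of the 34 cells. Slc2a1, Slc2a3 and the mitochondrial Slc25 family were left out by name. Of 292 records that could qualify, 96 did, each with a symbol of its own, from 17201 records in the table. The members were chosen by their CPM values in the single cells, so levels and numbers of cells below are descriptions without a test. The share that qualified was 32.9%, against 41.0% of all records, and nothing is read from it, since the rule fixed it. The rule goes by the symbol, and 2 members are named after a neighbouring or bound carrier and are not carriers themselves, Slc7a6os and Slc4a1ap.

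Converted hypoblast stem cells, abbreviated cHypoSCs, were made from rat embryonic stem cells (rESCs) cultured in the presence of 2% fetal bovine serum and the factors LIF, EGF and PDGF, and they were taken for sequencing after 12 days. They were first passaged 7 days after plating. The 34 single cells and the 1 bulk population library share this medium, day and origin, and no genotype, strain or culture number is given. No untreated rESCs are among the samples. Each group is therefore 1 sample, cells are not replicate cultures, and no difference was tested.

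A cell had 6288 to 503044 counted reads (median 266046), and the bulk library had 47121. A read was worth 1.99 to 159 CPM in a cell and 21.2 CPM in bulk, and 0 bulk reads allow up to 3 reads, or 63.7 CPM. All 8 hypoblast markers checked (Gata6, Gata4, Sox17, Dab2, Pdgfra, Foxa2, Lama1 and Sparc) were detected in at least 17 cells. None of the pluripotent, fibroblast, trophoblast, visceral endoderm or blood markers reached 17 cells. A set of 12 cells held under 3000 records with a read or under 50000 reads, and results that rest on them are also given for the other 22 cells. Transcript lengths were not used here, so levels are not compared between genes, and the number of cells with a gene also depends on transcript length and depth.

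Among substrate groups, metals (19 members), amino acids and peptides (18) and family 35 (14), which includes nucleotide sugar carriers, held the most members. Inorganic ions and pH had 12 members, the group of vitamins, nucleosides, choline and lipids also 12, organic anions and cations 9, sugars 6 and monocarboxylates 4. Of the metal carriers in the table, 61.3% qualified, and of family 35 it was 58.3%. The percentages were 19.1% for organic anions and cations and 24% for inorganic ions. Most members were found in few cells: 57 in 5 to 9 cells, 21 in 10 to 16 cells and 18 in at least 17 cells. Those 18 made up 18.8% of the members, against 41.5% of all records that pass the same detection rule. Among the 22 cells, 30 members were found in at least 11 cells.

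**Figure D1:**
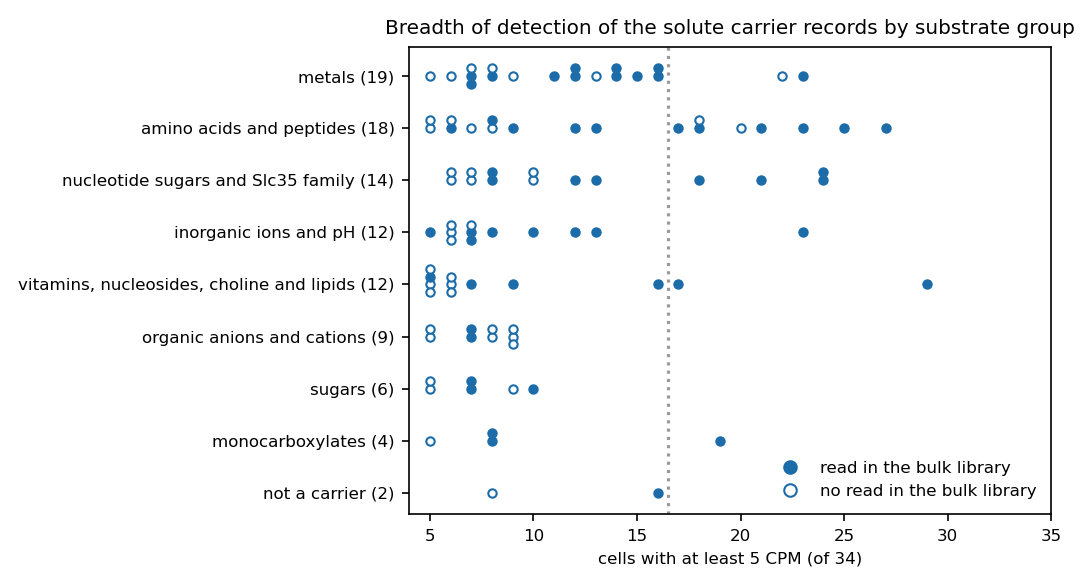
Number of cells with at least 5 CPM (x axis, of 34) for each of the 96 members (points), by substrate group with its number of members (y axis). Filled points had a read in the bulk library and open points had none. Points right of the dotted line were found in at least 17 cells, 8 of them in the amino acid group.

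Reads of the members made up 0.664% of a cell's reads at the median (range 0.0159% to 1.97%) and 0.764% of the reads in bulk. The record Slc44a1 held 34.8% of these member reads in the median cell, from 0% to 97.3%, and 11.1% in bulk. Without it, the members summed to a median of 4646 CPM in the cells (range 146 to 9179 CPM) and 6791 CPM in bulk.

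Promoter sequences are shown for 3 of the most widely detected carriers, the choline carrier Slc44a1 and the neighbouring pair Slc38a2 and Slc38a1, which carry glutamine and other neutral amino acids. Each spans 250 bases before to 50 bases after the start of the gene, from RefSeq on the GRCr8 build, which differs from the rn5 build named for the counts. The positions are chr5:72858750-72859049 on the plus strand for Slc44a1, and chr7:129742570-129742869 and chr7:129681352-129681651 on the minus strand for Slc38a2 and Slc38a1. Capitals mark matches, on either strand, to the GC box GGGCGG, the E-box CACGTG, the cAMP response element TGACGTCA and the C/EBP-ATF element TGATGNAA, which in mammals can answer amino acid shortage.
Slc44a1: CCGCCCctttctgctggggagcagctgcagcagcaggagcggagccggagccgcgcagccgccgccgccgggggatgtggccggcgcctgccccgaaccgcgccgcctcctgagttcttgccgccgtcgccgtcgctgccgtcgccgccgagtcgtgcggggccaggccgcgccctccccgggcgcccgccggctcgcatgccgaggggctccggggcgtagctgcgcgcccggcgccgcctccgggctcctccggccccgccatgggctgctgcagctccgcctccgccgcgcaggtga
Slc38a2: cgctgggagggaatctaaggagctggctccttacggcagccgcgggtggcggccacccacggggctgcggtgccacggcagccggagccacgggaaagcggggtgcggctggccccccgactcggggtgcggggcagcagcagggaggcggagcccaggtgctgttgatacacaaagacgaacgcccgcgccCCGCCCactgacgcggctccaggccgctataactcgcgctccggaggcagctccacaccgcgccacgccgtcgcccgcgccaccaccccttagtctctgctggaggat
Slc38a1: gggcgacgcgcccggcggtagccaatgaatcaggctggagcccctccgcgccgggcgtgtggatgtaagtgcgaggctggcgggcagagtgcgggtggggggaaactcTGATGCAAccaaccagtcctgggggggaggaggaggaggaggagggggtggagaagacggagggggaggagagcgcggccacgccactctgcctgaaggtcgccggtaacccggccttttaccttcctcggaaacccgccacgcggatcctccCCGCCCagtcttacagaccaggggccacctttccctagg
The 3 windows each held 1 GC box, and the C/EBP-ATF element was matched in that of Slc38a1. They do not stand for all broadly found members: the windows of Slc35a4, Slc35b2, Slc7a6 and Slc1a3 held no match to any of these patterns. Of the 96 members, 82 matched a promoter by gene ID. A GC box was found in 68.3% of these 82 and in 33.1% of all 33469 promoters. The C/EBP-ATF element was found in 2.44% of members and 3.98% of all, the E-box in 12.2% and 6.42%, and the cAMP response element in 3.66% and 1.83%. The median GC content was 62.8% in members' promoters and 51.7% in all, and the part of base composition in the GC box shares was not tested. The set of all promoters also holds genes not detected in these cells. No share was computed for other detected genes, so these values do not set carriers apart from them. A match is a string of letters and not a shown binding site.

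Choline, vitamin and nucleoside carriers were led in breadth by Slc44a1, which carries choline, the head group of phosphatidylcholine. Slc44a1 was detected in 29 cells (85.3%), from 0 to a median of 2333 and a highest value of 12731 CPM. The highest cells were C26, C03 (8499 CPM) and C10 (6479.5 CPM), and 5 cells had 0 reads. Its mean was 2929 ± 2929.9 CPM (SD over 34 cells), and 3577 CPM in the 22 cells, of which 21 had it. In bulk it held 849 CPM from 40 reads. Slc44a1 overlaps LOC102551474, a noncoding gene on the other strand, in GRCr8.

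Both folate carriers qualified. Slc19a1, the reduced folate carrier, was found in 17 cells at 78.0 ± 161 CPM, with a median of 2.76 and a highest value of 663 CPM, and at 170 CPM in bulk. Slc46a1, the proton-coupled folate carrier, was found in 16 cells, with a median of 1.54 CPM. Its mean of 196 CPM rested on C03, which held 5103 CPM or 76.7% of the signal. Leaving C03 out gave a mean of 47.1 CPM. At least 1 of the folate carriers was detected in 24 cells and both in 9. Slc5a6, which carries biotin and pantothenate, was found in 9 cells, and Slc33a1, which brings acetyl-CoA into the endoplasmic reticulum, in 7. The other members of this group were Slc23a2, Slc27a1, Slc27a3, Slc43a3, Slc44a3, Slc44a4 and Slc52a2, each in 5 or 6 cells.

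Amino acid carriers were the group with the most members in at least 17 cells, 8 of 18. The system A carriers, which take up neutral amino acids together with sodium, were found in 27 cells. Slc38a2 was detected in all 27 of these, from 0 to a median of 162 and a highest value of 1114 CPM (mean 221 ± 296). Slc38a1 was detected in 23 cells, all of which had Slc38a2 as well, with a median of 38.9 and a highest value of 799 CPM. Slc38a4 was found in 13 cells, up to 313 CPM. The 7 cells with no system A carrier were C54 and 6 of the 12 shallow or gene-poor cells.

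Slc3a2 encodes the heavy chain of CD98, which brings amino acid exchangers to the cell surface. It was detected in 25 cells, from 0 to a median of 113 and a highest value of 1802 CPM in C72 (mean 252 ± 373). Of its light chains, Slc7a6 was found in 20 cells and Slc7a5 in 12, while Slc7a7 and Slc7a11 in 4 cells each and Slc7a8 in 1 did not qualify. Slc7a11, the light chain of the cystine exchanger, had 46 reads over all cells. In 19 cells Slc3a2 was detected together with Slc7a5 or Slc7a6, in 6 cells Slc3a2 was without either, and in 3 cells a light chain was without Slc3a2. All 19 cells with both were among the 22.

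Slc1a5, an exchanger of glutamine and other neutral amino acids, was found in 21 cells, with a median of 10.9 and a highest value of 679.9 CPM. Slc1a3, a glutamate carrier, was found in 17 cells, with a median of 5.53 and a highest value of 901 CPM in C27. Both were detected in 15 cells. Slc6a8, the creatine carrier, was found in 18 cells, with a median of 6.04 and a highest value of 667 CPM. The creatine synthesis genes Gatm and Gamt were found in 0 cells and 1 cell, and Ckb, which encodes a creatine kinase, in 6. Slc66a3 was found in 18 cells, up to 338 CPM. The remaining 8 members of the group were in 5 to 9 cells, among them Slc7a3, a carrier of cationic amino acids, and Slc38a9, which senses arginine at the lysosome, each in 8 cells.

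Metal carriers were detected in 30 cells, up to 16 members in a cell. Zinc carriers made up 12 of the 19, with 6 members each of family 39 and family 30. Family 39 brings zinc into the cytosol, and carriers of family 30 mostly remove it. A family 39 member was detected in 29 cells and a family 30 member in 27. Both families were detected in 26 cells, and in 21 of the 22 cells kept by both limits.

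Slc39a1, a zinc importer of the plasma membrane, was found in 23 cells, from 0 to a median of 48.7 and a highest value of 879.6 CPM in C30 (mean 101 ± 167). Slc39a7, which releases zinc from the endoplasmic reticulum, was found in 22 cells, with a median of 28.1 and a highest value of 426 CPM. It overlaps Rxrb on the other strand in GRCr8, and the labels do not state strand use, so reads of both cannot be told apart. Slc39a4, which takes up zinc in the gut and, in mice, in the visceral yolk sac, was found in 16 cells. Its mean was 163 ± 289 CPM and its highest value 1203 CPM in C38. In the 22 cells it was found in 16, with a median of 115 CPM. Of family 30, Slc30a7 was found in 15 cells, Slc30a9 in 14, Slc30a5 in 13, Slc30a4 in 12, Slc30a6 in 11 and Slc30a1, the exporter of the plasma membrane, in 8. Slc30a5 and Slc30a6 are known to work as a pair in the early secretory pathway. The metallothionein genes Mt1 and Mt2A, whose products buffer zinc, were found in 19 and 17 cells.

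Iron was served by 3 members and copper by 2. Slc11a2, which brings iron out of endosomes, was found in 14 cells, up to 270 CPM. Slc40a1, the iron exporter ferroportin, was found in 12, up to 1028 CPM in C26, which held 46.6% of its signal, and it overlaps Asnsd1 on the other strand. Only 4 cells had both. Slc31a1, the copper importer, was found in 16 cells, up to 435 CPM, and overlaps Fkbp15 on the other strand. Among partner genes, the transferrin receptor gene Tfrc was found in 19 cells, and the ferritin genes Fth1 and Ftl1 in 34 and 33. The other metal members (Slc31a2, Slc41a1, Slc41a2, Slc39a6, Slc39a9, Slc39a11 and Slc11a1) were in 5 to 9 cells.

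Nucleotide sugar carriers supply the Golgi apparatus and the endoplasmic reticulum with donors for glycosylation and sulphation. Members of the 35 family were grouped by name, and not all were listed as such carriers. They were detected in 31 cells, with a median of 5.5 members in a cell. Slc35a4 was found in 24 cells, from 0 to a median of 81.9 CPM, and 2936 CPM in C95, which held 33.4% of its signal. It overlaps LOC120098313, a coding gene on the same strand, in GRCr8. Slc35b1 was also found in 24 cells, with a median of 92.8 and a highest value of 816 CPM. Slc35b2, which carries the sulphate donor PAPS, was found in 21 cells, up to 2039 CPM in C88, where a read is worth 78.4 CPM. Slc35a1, the CMP-sialic acid carrier, was found in 18 cells, with a median of 5.94 and a highest value of 1047 CPM, and overlaps Rars2 on the other strand. Slc35b4, Slc35e3, Slc35c2 and Slc35f6 were in 10 to 13 cells. The other 6, among them Slc35a2, the UDP-galactose carrier, were in 6 to 8.

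Ion carriers were found in 28 cells. Slc20a1, a sodium phosphate cotransporter, was found in 23 cells, from 0 to a median of 55.6 and a highest value of 593 CPM (mean 139 ± 181). Slc5a5, the sodium iodide symporter known from the thyroid, was found in 13 cells, up to 504 CPM in C43, which held 44.5% of its signal. The potassium-chloride cotransporters Slc12a7 and Slc12a4 were found in 12 and 8 cells. Slc4a7, Slc12a2, Slc26a6, Slc8b1, Slc34a2 and Slc12a9 were in 6 to 10 cells. Of the beta subunits of the sodium pump, Atp1b3 was found in 23 cells, Atp1b1 in 15 and Atp1b2 in 0.

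Of the monocarboxylate carriers, Slc16a1, which moves lactate and pyruvate with protons, was found in 19 cells, up to 1361 CPM in C38 (mean 165 ± 297). Slc16a3, known for lactate export from glycolytic cells, was found in 8 cells, and its highest value was 36.8 CPM. Slc16a1 was detected together with Bsg, which encodes the chaperone basigin, in 18 of its 19 cells, and with Emb, which encodes embigin, in 8. Bsg itself was found in 25 of the 34 cells and Emb in 8, so the shared cells are not read as pairing. The mean of Slc16a6 (38.8 CPM, 8 cells) was 11.4 CPM without C09, and Slc16a4 was in 5 cells.

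Sugar carriers were found in 20 cells, with no member in 17 or more. Slc2a10 was found in 10 cells, up to 577 CPM, Slc45a3 in 9 and Slc37a4, the glucose-6-phosphate carrier of the endoplasmic reticulum, in 7. Of organic ion carriers, Slc17a9, which fills vesicles with nucleotides, Slc10a1, a bile acid carrier known from liver, and Slc22a23 were found in 9 cells each. Slc10a1 reached 207 CPM in C80 and averaged 12.7 CPM. The other 6 organic ion members were in 5 to 8 cells, and the other 3 sugar members in 5 to 7. The non-carriers Slc7a6os and Slc4a1ap were found in 16 and 8 cells.

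**Figure D2:**
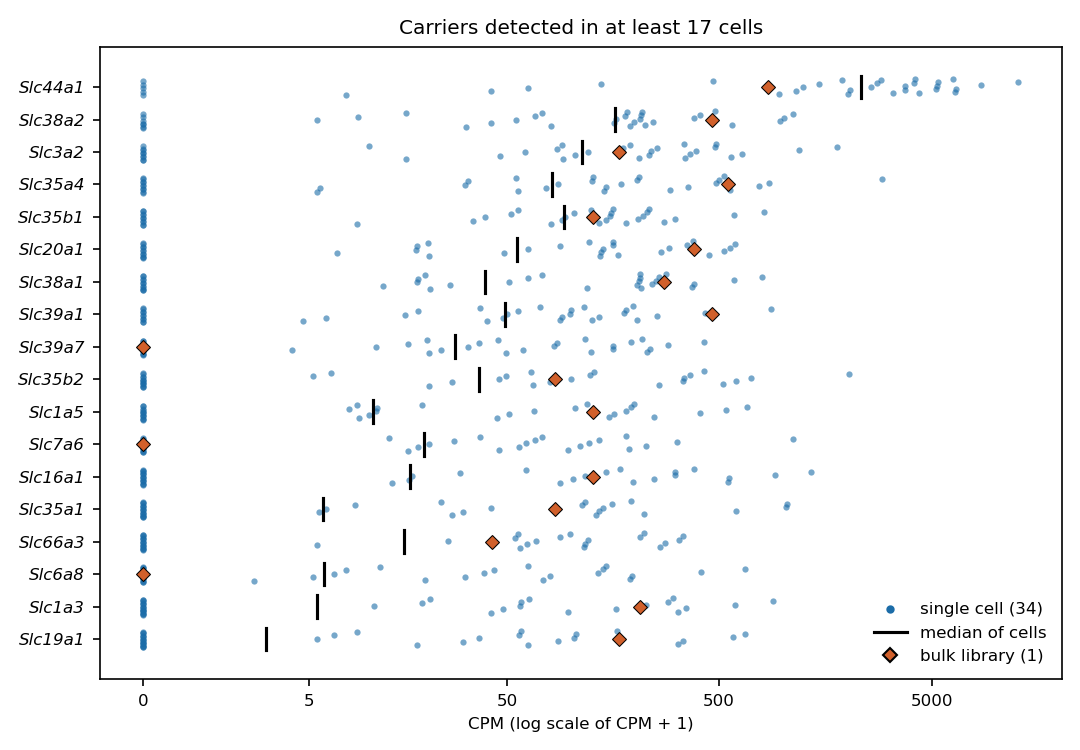
CPM on a log scale of CPM + 1 (x axis) in each of the 34 cells (blue points) and in the bulk library (orange diamonds) for the 18 members found in at least 17 cells (y axis). Black bars are medians over cells. Slc44a1 had 29 cells above 0 and a median right of its bulk value, while the bulk values of Slc39a7, Slc7a6 and Slc6a8 were 0.

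The bulk value of each of the 18 broadly found members lay within the range of its cells.

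The next comparison set the mean of the cells beside the bulk population library, for the 36 members whose cells' mean and bulk value averaged at least 50 CPM. Of these, 4 were at least 2-fold higher in the cells, 20 were at least 2-fold higher in bulk and 12 were within 2-fold. This level filter shapes the balance. Of the 20, 12 averaged under 50 CPM in the cells and were compared only through their bulk value. Among all records higher in bulk this held for 624 of 1057. None of the 42 members without a bulk read was compared. The counts describe the compared members and not all 96. Of all 3441 records compared the same way, 19.6% were higher in the cells and 30.7% higher in bulk. Among records that pass the detection rule it was 19.9% and 29.6%, against 11.1% and 55.6% of the members. The compared sets differ, since 246 of these 3360 records had no bulk read, against 0 of the 36 members. The median log2 ratio of cells to bulk, on CPM + 1, was -1.04 for the members and -0.19 for the records that pass the rule. With no filter on level its sign turned, to 0.70 for all 96 members and 0.94 for all records. With TMM factors 15 of 37 members were higher in bulk (40.5%, against 25.7% of all records) and 4 in the cells (10.8%, against 23.4%). Summing reads over cells gave 15 of 37 higher in bulk (40.5%, against 28.6%) and 3 in the cells (8.11%, against 20.3%). With the 22 cells, 16 of 38 members were higher in bulk (42.1%, against 27.9% of all records). Another 6 were higher in the cells (15.8%, against 18.4%). A bulk value cannot tell fewer cells with a transcript from less RNA in each. Each value rests on few bulk reads, and 85.2% of the members' nonzero bulk counts were even. Where reads were counted in pairs, the Poisson intervals below are too narrow.

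The members farthest toward bulk were carriers of lactate, acetyl-CoA and potassium chloride, each compared through its bulk value. Slc16a3 averaged 5.48 CPM in the cells and 170 CPM (8 reads) in bulk, 30.98-fold lower in the cells (interval 13.4 to 61.0). It overlaps Csnk1d in GRCr8. Slc33a1 averaged 6.24 CPM in the cells and 170 CPM (8 reads) in bulk, 27.2-fold lower in the cells (11.7 to 53.6). Slc12a4, a potassium-chloride cotransporter, averaged 14.7 CPM in the cells and 297 CPM (14 reads) in bulk, 20.3-fold lower in the cells (11.1 to 34.0). It overlaps the noncoding gene LOC120098640. The highest cell values of Slc16a3, Slc33a1 and Slc12a4 were 36.8, 48.6 and 139.5 CPM, all under the bulk value.

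Among ion, vitamin, amino acid, nucleotide sugar and metal carriers, further members were at least 2-fold higher in bulk. All named here but Slc39a1, Slc40a1 and Slc20a1 averaged under 50 CPM in the cells. They were compared only through their bulk value. Slc30a6 averaged 13.4 CPM in the cells and 127 CPM in bulk, 9.49-fold lower in the cells (interval 3.48 to 20.7), and 6.14-fold with the 22 cells. Slc5a5 averaged 33.3 CPM in the cells and 233 CPM in bulk, 7.01-fold lower in the cells (3.50 to 12.5), and 12.3-fold without C43. Slc39a1 averaged 101 CPM in the cells and 467 CPM in bulk, 4.62-fold lower in the cells (2.90 to 7.00), and 1 of 34 cells exceeded the bulk value. Slc5a6, Slc35b4, Slc7a3, Slc35a2 and Slc31a1 were 3.96-fold to 5.94-fold lower in the cells, on 4 to 8 bulk reads each. Slc5a6 was 5.94-fold lower, 9.48-fold without C05 and 3.84-fold with the 22 cells. Slc35a2 was 4.14-fold lower, and 8.15-fold without C24. Slc7a3 was 4.80-fold lower, and 3.11-fold with the 22 cells. Slc40a1 was 2.94-fold lower in the cells (1.35 to 5.59), 5.35-fold without C26 and 1.94-fold with the 22 cells, and Slc20a1 2.74-fold (1.63 to 4.34). Slc7a5 was 3.34-fold lower (0.910 to 8.55), with an interval that holds 1.

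Slc35a4, Slc38a2 and Slc38a1 lay near the 2-fold threshold. Slc35a4 averaged 259 CPM in the cells and 552 CPM in bulk, 2.13-fold lower in the cells (interval 1.39 to 3.13). Slc38a2 averaged 221 CPM in the cells and 467 CPM in bulk, 2.11-fold lower in the cells (1.32 to 3.20). Slc38a1 averaged 137 CPM in the cells and 276 CPM in bulk, 2.01-fold lower in the cells (1.07 to 3.44). With the 22 cells these were 2.37-fold, 1.45-fold and 1.40-fold lower. Slc38a4, Slc1a3 and Slc19a1 were 2.02-fold to 2.56-fold lower in the cells with intervals that hold 1, and under 2-fold with the 22 cells. Slc38a4 averaged 49.7 CPM in the cells and was compared only through its bulk value.

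Slc44a1 was the 1 carrier higher in the cells with an interval that left out 1. It averaged 2929 CPM in the cells and 849 CPM (40 reads) in bulk, 3.45-fold higher in the cells (interval 2.53 to 4.83), and 4.21-fold with the 22 cells. Slc35b2, Slc46a1 and Slc30a4 were 2.19-fold, 2.31-fold and 2.53-fold higher in the cells, on 2 to 4 bulk reads and with intervals that hold 1. Without its highest cell each, none of these 3 was at least 2-fold higher. With the 22 cells, Slc35b2 was 2.17-fold and Slc30a4 2.41-fold higher in the cells. Slc46a1 was lower in the cells than in bulk with the 22 cells (59.4 CPM in the cells and 84.9 CPM in bulk). Carriers with 0 bulk reads had no fold, except that Slc7a6, Slc39a7 and Slc6a8 were at least 1.36-fold, 1.22-fold and 1.05-fold higher in the cells than the floor of 3 bulk reads, for independent reads. Without C47 the mean of Slc7a6 was 55.2 CPM and without C37 that of Slc6a8 was 48.7 CPM, both under the floor of 63.7 CPM. With the 22 cells the bounds were 1.09-fold for Slc7a6, 1.55-fold for Slc39a7 and 1.49-fold for Slc6a8.

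Within 2-fold lay Slc3a2 (252 CPM in the cells and 170 CPM in bulk, and 2.08-fold higher in the cells with the 22 cells), Slc16a1 (165 and 127 CPM), Slc35b1 (132 and 127 CPM), Slc39a4 (163 and 212 CPM) and Slc1a5 (94.98 and 127 CPM). Slc35a1, Slc66a3, Slc30a7, Slc11a2, Slc2a10, Slc17a5 and Slc7a6os did so as well, on 2 to 4 bulk reads each. With the 22 cells, Slc66a3 was 2.63-fold and Slc30a7 2.23-fold higher in the cells. The excluded glucose carrier Slc2a3 averaged 126 CPM in the cells and 1019 CPM in bulk, and Slc2a1 averaged 161 CPM in the cells and 84.9 CPM in bulk.

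Markers of other cell types were set beside these values. The 3 fibroblast markers (Col1a1, Col1a2 and Col3a1) summed to 0 to 2971 CPM in the cells, with a median of 0, and to 1677 CPM in bulk. The 3 trophoblast markers (Cdx2, Prl3d1 and Plac1) summed to 0 to 839 CPM in the cells, with a median of 0, and to 806 CPM in bulk. Cdx2 had 0 reads in both, and Prl3d1 had 0 reads in the cells and 12 in bulk. The part of such cells in the carriers' bulk values was not tested.

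**Figure D3:**
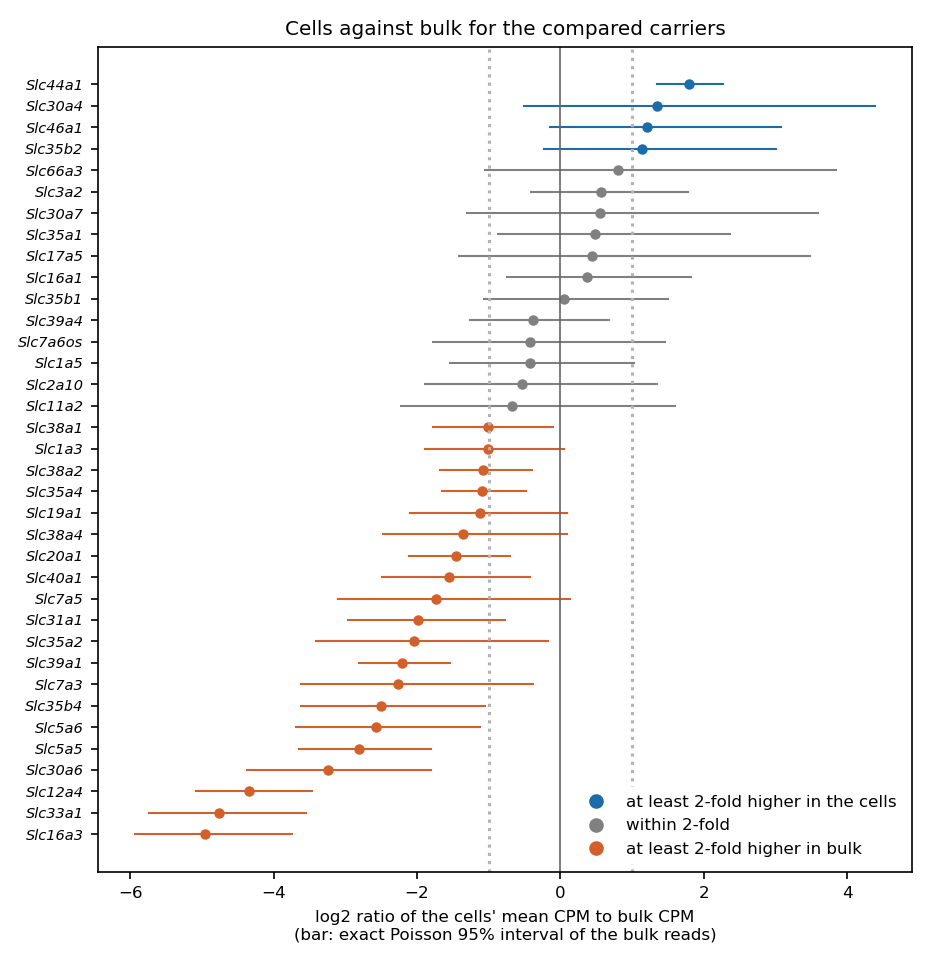
Log2 ratio of the cells' mean CPM to the bulk CPM (x axis) for the 36 compared members (y axis), with exact Poisson 95% intervals of the bulk reads. Dotted lines mark 2-fold. The 20 orange members were at least 2-fold higher in bulk, down to Slc16a3, and Slc44a1 is the uppermost of the 4 blue ones.

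The share of members with any bulk read was lowest among those found in the fewest cells. It was 36.8% for members in 5 to 9 cells, against 713 of 2037 records with that breadth, and 83.3% against 79.3% in 17 or more cells. In between, 18 of 21 members in 10 to 16 cells had a bulk read (85.7%), against 56.9% of records. Over all breadths it was 54 of 96 members (56.2%), against 59.9%.

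The last comparison asked how the carriers were spread over the cells. A cell held between 1 (C94) and 66 (C15) of the 96 members, with a median of 35. The number followed the number of records with a read in the same cell, with Spearman's rho of 0.93 and Pearson's r of 0.92 over 34 cells, and 0.83 and 0.84 over the 22 cells. Both counts come from the same library and share its quality, so this is a description. With the number of reads the rho was 0.32. C54, the deepest cell with 503044 reads and 3307 records, held 4 members, among them Slc35a4 at 861 CPM and Slc44a1 at 7.95 CPM. After thinning the 30 cells with enough reads to 50000 reads each, the median was 31 members with a read.

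**Figure D4:**
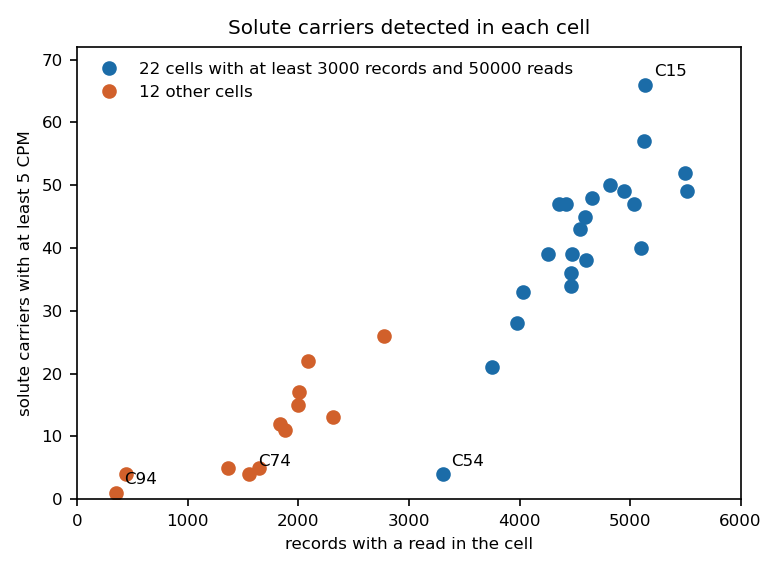
Members with at least 5 CPM (y axis) against records with a read (x axis) in each of the 34 cells (points). The 22 blue cells held 4 to 66 members and the 12 orange cells 1 to 26.

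Single cells often held much of a member's signal. The highest cell held 12.5% to 82.8% of the summed CPM, with a median of 35.9% for members and 27.6% for all records that pass the detection rule. In 15 members (15.6%) it held more than 50%, against 14.4% of those records. Among them were Slc46a1 (C03), Slc39a6 (79.8%, C14), Slc44a4 (78.9%, C45) and Slc27a1 (82.8%, C38). Of the 96 members, 19 had their highest value in 1 of the 12 shallow or gene-poor cells, and 11 in C38. No such counts are given for all records, so they are not read as a trait of the carriers or of C38. In Slc20a1, Slc44a1, Slc66a3 and Slc38a2, by contrast, the highest cell held 12.5%, 12.8%, 13.5% and 14.8%.

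Partner genes on a list chosen with earlier results known were found in at least 17 cells in 18 of 33 cases, in fewer in 11 and in no cell in 4 (Atp1b2, Steap3, Xpr1 and Gatm). Of genes that answer amino acid shortage, Atf4 was found in 31 cells at 644 ± 1349 CPM (297 CPM in bulk) and Asns, asparagine synthetase, in 23 at 491 ± 867 CPM (679 CPM in bulk), while Chac1 was found in 8. Of genes of glutathione synthesis and its regulation, Gclc and Nfe2l2 were each found in 25 cells, Gclm in 20 and Gss in 18. The lactate dehydrogenase gene Ldha was found in 30 cells at 1360.4 ± 1124 CPM (594 CPM in bulk).

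The members at the edge of the rule, in 5 cells, included Slc5a3, Slc37a1, Slc15a2, Slc27a3, Slc27a1, Slc16a4, Slc6a2, Slc18a2, Slc43a3, Slc44a3, Slc38a6 and Slc11a1, with means of 2.51 to 35.7 CPM. Just outside it, in 4 cells, were Slc35a5, Slc48a1, Slc12a8, Slc27a4, Slc39a14, Slc6a6, Slc39a5, Slc7a11, Slc9a8, Slc7a7, Slc4a2, Slc20a2 and Slc15a1, with means of 1.99 to 17.3 CPM.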

How the data were processed

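The authors deposited raw counts, whole numbers of reads for each RefSeq transcript record, for 34 single cells and 1 bulk library. The C1 Single-Cell Auto Prep kit and Nextera XT were used, per the labels' protocols. TopHat2 and rn5 are named, per the submitters' processing notes. Strand use, the counting tool and the treatment of multiply mapped reads were not given in the sources used here. No molecular identifiers are mentioned, so intervals and floors cover counting error only.

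Of 17201 records, 16215 were matched to a symbol by identifier in the RefSeq gene table of GRCr8. That table puts 34 of the 96 members over another gene, 21 of them over a protein-coding one. Not all of these overlaps are named here. CPM values were computed from the counts and the total of each library. Exact Poisson 95% intervals of the bulk reads were computed, with the cells' mean held fixed. Ratios used a pseudocount of 1 CPM for calls and none for printed folds. A record without a bulk read counted as higher in the cells only from 2 times the floor of 3 reads on. The rules for calls between cells and bulk were run on simulated data with counting noise only and the same profile in all cells. The planted changes were larger than 2-fold and in records of higher level. This does not cover 2-fold calls, low levels or uneven cells, and the detection rule was not simulated. Carriers were grouped by family, with exceptions for single genes.

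The members, gene lists, comparisons and alternatives were chosen with earlier results of these data known. Members were named when found in at least 17 cells, when among the 3 broadest of their group, with at least 10 bulk reads, past 2-fold, or at the edge of the rule. Others are named to account for the groups. A few genes that these rules take are not reported here by name. Python 3.11.15 with scipy 1.17.1 and edgeR 4.0.16 (for TMM factors) were used. No doublet caller was run, all 34 cells enter the first values given, and no p-value is given, since each group is 1 sample.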

Additional observations from a re-analysis of the deposited data

How the results depend on the processing

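No paired analysis was possible because the cells carry no replicate numbers shared with the bulk library and no test was made. With detection at 50 CPM, 45 records qualified, 7 members were found in 17 or more cells and the median cell held 19.5 members. With the 22 cells, 30 members were found in 11 or more cells. Without the highest cell of each record, 1 member, Slc44a1, was at least 2-fold higher in the cells (3.23% of those compared, against 11.5% of all records). With no filter on level the median log2 ratio was 0.70, where records without a bulk read enter, and over all records it was then 0.94. Under 9 alternatives, the same 11 carriers were at least 2-fold higher in bulk each time (Slc12a4, Slc16a3, Slc20a1, Slc30a6, Slc31a1, Slc33a1, Slc35b4, Slc39a1, Slc5a5, Slc5a6 and Slc7a5). All 9 use the same bulk library, and lowering or dropping the level filter cannot remove a call. All of the 11 but Slc20a1 and Slc39a1 averaged under 50 CPM in the cells and were compared only through their bulk value. The interval of Slc7a5 held 1. The share of members higher in bulk lay between 30.2% with no filter and 58.1% without the highest cells, against 18.3% and 41.8% of all records. With TMM factors it was 40.5% against 25.7%, and the median over all records was -0.01 (-0.22 before), with a members' median of -0.78. Means over cells of 12 named members fell by over 1.5 times without their highest cell, among them Slc7a6 (55.2 CPM), Slc5a5 (19.04 CPM), Slc30a4 (69.2 CPM), Slc40a1 (35.7 CPM) and Slc12a7 (36.5 CPM). At 47121 reads, the bulk library may miss carriers under 63.7 CPM.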

Other observations

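Most solute carriers that did not qualify were not detected in any cell. Of the 196 records outside the rule, 131 were detected in no cell, and of all 292 records considered, 117 had 0 reads in the cells. Records without a read were common throughout: of all 17201 records, 10784 had a read in the cells or in bulk. That is another measure, and the counts given for carriers were not made for all records. Neither these counts nor those by group below are read as a trait of the carriers. Among carriers of organic anions and cations, 31 of 47 had 0 reads in the cells, and among metal carriers 5 of 31. Of the 196, 13 had a bulk read. Slc6a17 had 6 bulk reads and was detected in 3 cells, and Slc1a4, a carrier of alanine, serine and cysteine, had 6 bulk reads and was detected in 2 cells.

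Col1a2 was detected in 4 cells. Slc44a1, the choline carrier, was at 140.1 CPM in C14, 0 in C17, 0 in C30 and 41.9 CPM in C46. Low values were also found in cells without Col1a2, with 0 in C45, C74 and C94, 7.95 CPM in C54 and 62.8 CPM in C09. The median of all cells was 2333 CPM. C14, C30, C45, C74, C94 and C09 are among the shallow or gene-poor cells. The highest values of Slc39a1 and Slc11a1 were in C30, those of Slc30a9 and Slc39a6 in C14, and those of Slc66a3 and Slc10a3 in C17. The 4 cells with Col1a2 were picked out by a measured gene, so no comparison is made.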
